A study of Mus musculus with 6 samples.

Results

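The cells described here are mature neutrophils of liver macrometastasis in which the stefin A genes were low. They were chosen from the scores deposited for macrometastasis by 3 conditions. The mean score of 5 genes of mature neutrophils (Csf3r, Cxcr2, G0s2, Hdc and Il1r2) had to be above 0.4. The mean of 3 genes of neutrophil precursors (Fcnb, Ltf and Cebpe) had to be below 0.5, and the mean of 4 stefin genes (Stfa1, Stfa2, Stfa3 and Cstdc6) at most 0.5. Of 10415 cells of macrometastasis, 1692 met all 3 conditions, out of 23008 cells in all 6 libraries of the study. They are called stefin-low cells below, and the mature neutrophils above the stefin limit are called stefin-high.

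The study sorted CD45+ immune cells from pieces of liver of Balb/c mice and sequenced them as single cells (10x Genomics 3′ libraries, in which a unique molecular identifier, UMI, marks each captured RNA molecule). All mice, in both arms, had received 4T07 mouse mammary tumour cells by intracardiac injection. The tumour cells carried either a scramble control vector (Ctrl) or a short hairpin RNA against Tim3 (Havcr2), called Tim3-KD; the knockdown was in the tumour cells and not in the sorted immune cells. Macrometastasis was taken on day 12, and micrometastasis and tumour-free adjacent tissue on day 3. Mice were pooled and each group had a single library, so no difference between groups has a replicate check. For that reason no test was run and p-values are left out. Intervals are exact 95% intervals (Poisson for levels, conditional binomial for ratios, Clopper-Pearson for shares) and cover counting error only. Mouse age was not given in the labels.

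Neutrophils mature in the bone marrow, where they first fill azurophil granules (elastase, myeloperoxidase) and later secondary and tertiary granules (lactoferrin, cathelicidin, gelatinase), and then leave for the blood under the control of the G-CSF receptor Csf3r and the chemokine receptors Cxcr2 and Cxcr4. Stefins A are small inhibitors of cysteine proteases that mouse neutrophils make from a cluster of closely related genes. In the liver, tissue neutrophils can also turn on cytokines, acute phase genes such as Saa3, and interferon-stimulated genes.

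The stefin-low cells were 743 of 4913 cells in Ctrl (15.1%, interval 14.1 to 16.2) and 949 of 5502 in Tim3-KD (17.2%, 16.3 to 18.3). At a stefin limit of 0.2 they were the smaller share of mature neutrophils. With the rule as given they were the larger share, 54.4% in both libraries. The counts were 743 of 1366 (interval 51.7 to 57.1) in Ctrl and 949 of 1743 (52.1 to 56.8) in Tim3-KD. The same rule, applied to the separately scaled scores of micrometastasis, took 770 cells of Ctrl (51.6% of mature neutrophils) and 640 of Tim3-KD (37.6%). In adjacent tissue it took 374 cells of Ctrl (61.3% of mature neutrophils) and 18 of the 19 mature neutrophils of Tim3-KD. Because each site was scaled on its own, an equal score does not stand for an equal level at another site. The median depth of stefin-low cells was 4865 UMIs (Ctrl) and 4800.0 UMIs (Tim3-KD), against 6522 and 6438 in stefin-high cells, so the stefin-low cells were also the shallower ones. Without cells under 3000 UMIs, the share among mature neutrophils in Tim3-KD was 51.8%.

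**Figure D1:**
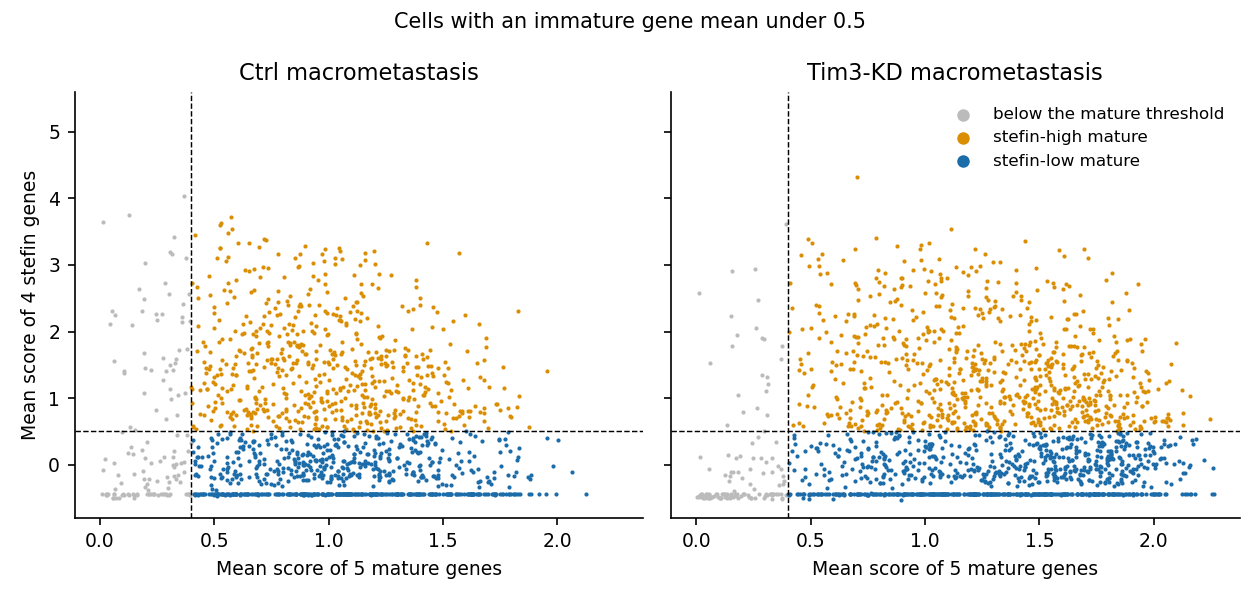
Mean score of the 5 mature genes (horizontal) and of the 4 stefin genes (vertical) for single cells of macrometastasis with an immature gene mean under 0.5 and a mature gene mean above 0, 1 point per cell, with the thresholds of 0.4 and 0.5 as dashed lines. Stefin scores run without a gap across the line at 0.5, and many stefin-low cells lie in a band at the lowest score.

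The limit on the stefin genes did not fall in a gap. The member nearest to it had a mean of 0.4997 and the nearest cell outside 0.5007. For the mature genes the nearest members and outsiders had 0.4011 and 0.3974, and for the immature genes 0.4916 and 0.5025. With each cell thinned to 1500 UMIs, 62.7% of stefin-low cells in Ctrl and 62.9% in Tim3-KD held no UMI of the 4 stefin genes. This was so for 2.73% and 3.02% of stefin-high cells, whose mean was 9.22 and 8.34 UMIs, against 0.789 and 0.765. The rest of the stefin-low cells held mostly 1 to 4 UMIs. The group is thus the low side of a continuous range and holds both cells without a stefin UMI and cells with a few.

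The libraries of macrometastasis shared 9 cell barcodes and no library pair shared more than 11; the stefin-low cells of Ctrl and Tim3-KD shared 0. A single cell of Tim3-KD could not be turned back into UMIs, which leaves 1691 cells for all levels below. Csf3r was detected in 96.5% of the stefin-low cells in both libraries, Hdc in 98.9% and 98.3%, and Il1r2 in 99.2% and 98.4%, but these are genes of the rule, so their detection follows from it. Trem1, a myeloid receptor that the rule did not use, was detected in 98.7% and 96.4%. A few cells held most of the UMIs of granule genes of precursors. The Tim3-KD library held 6 stefin-low cells of 54617 to 137873 UMIs, and these 6 held 98.8% of its Elane, 97.6% of its Mpo and 98.1% of its Prtn3 UMIs. The Ctrl library held 1 such cell (90059 UMIs), with 593 of the 887 Lgals1 UMIs. Where a value named below moved by over 1.5 times without cells over 50000 UMIs, on both sides of the comparison, the value without them is given too.

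Summed markers of most other cell types were also at a higher level in stefin-low than in stefin-high cells. All 11 monocyte markers were detected, with a summed level of 522 CPM in Ctrl (UMIs scaled to 1000000 UMIs of the cells in question, the unit of all levels here) and 462 in Tim3-KD (219 and 186 in stefin-high cells); Ctss and Csf1r were the most abundant in both libraries. The 12 measured Kupffer cell and macrophage markers came to 728 and 699 CPM (369 and 266 in stefin-high cells), led by Slc40a1, C1qa and C1qb. Dendritic cell markers came to 495 and 233 (124 and 41.8), led by the MHC class II genes; Xcr1 and Siglech were at 0 in Tim3-KD. Hepatocyte markers were nearer to each other at 397 and 332 (353 and 274), and B cell markers were low at 27.3 and 15.6 (23.6 and 10.5), with Fcmr and Ms4a1 among those at 0 in Ctrl and Ebf1 at 0 in Tim3-KD. T and NK cell markers came to 118 and 91.8 (110.0 and 65.9), with Klrb1c at 0 in Ctrl, and endothelial markers to 145 in Ctrl (85.5 in stefin-high cells). Basophil and mast cell markers came to 15.3 and 11.6 (4.72 and 5.58). Platelet and erythroid markers came to 15.1 and 21.9 (22.6 and 14.7), lower than in stefin-high cells in Ctrl. Cells with at least 3 UMIs of a list did not follow these levels throughout: for Kupffer cell and macrophage markers they were 15.5% of stefin-low and 20.1% of stefin-high cells in Ctrl, and for T and NK cell markers 3.50% and 8.03%. These levels move with several gene groups below. Results were computed again without cells holding at least 3 UMIs of the markers of another cell type, and those values are given where they bear on a result.

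Csf3r, the receptor for G-CSF (chromosome 4, 126024550 to 126044440, plus strand, GRCm38), stood at 989 CPM (960.2 to 1018) in stefin-low cells of Ctrl and 1189.7 (1163 to 1217) in Tim3-KD. Il1r2, the decoy receptor for interleukin 1 (chromosome 1, 40074079 to 40125231, plus strand), stood at 2309 (2265 to 2353) and 1909 (1875 to 1943). Both belong to the rule, so their presence is a description. Against stefin-high cells of the same library, Csf3r was 1.23 times as high in Ctrl and 1.10 times in Tim3-KD, and Il1r2 1.00 and 0.936 times. Neither receptor was 1.5 times apart between stefin-low and stefin-high cells, and under trimmed mean scaling Csf3r turned to 0.959 and 0.861.

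Csf1, the growth factor of monocytes and macrophages (chromosome 3, 107741048 to 107760469, minus strand), was at 553 CPM (532 to 575) in stefin-low cells of Ctrl and at 526 (508 to 544) in Tim3-KD. These were its 2 highest levels in mature neutrophils, leaving out the 18 stefin-low cells of adjacent tissue Tim3-KD (624, 477 to 802), and their intervals overlap. Next came stefin-low cells of adjacent tissue Ctrl at 424 (401 to 448) and stefin-high cells of macrometastasis Ctrl at 416 (398 to 434), again with overlapping intervals. Stefin-low cells of micrometastasis had 384 in Ctrl and 255 in Tim3-KD, and stefin-high cells of micrometastasis had the lowest levels, 125 and 141. In the 5 libraries other than adjacent tissue Tim3-KD, the Csf1 level was thus higher in stefin-low than in stefin-high cells, also in macrometastasis Tim3-KD (526 against 373) and adjacent tissue Ctrl (424 against 199). The ratio in macrometastasis was 1.33 (1.25 to 1.41) in Ctrl and 1.41 (1.34 to 1.49) in Tim3-KD. It was 1.78 and 1.74 without cells holding UMIs of another type, but 1.03 and 1.11 where the libraries were scaled by a trimmed mean of the gene ratios.

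Saa3, an acute phase apolipoprotein made by macrophages and other tissue cells in inflammation (chromosome 7, 46711998 to 46715700, minus strand), was the most abundant of the 4 markers in both libraries. Its level was 4158 CPM (4099.8 to 4217) in Ctrl and 2574 (2535 to 2614) in Tim3-KD. Stefin-high cells had nearly as much, 3709 and 2382, with ratios of 1.12 and 1.08 that turned to 0.872 and 0.849 under trimmed mean scaling. In micrometastasis the stefin-low cells had 2669.7 in Ctrl and 2859 in Tim3-KD, and in adjacent tissue Ctrl 188. The 18 stefin-low cells of adjacent tissue Tim3-KD held 0 Saa3 UMIs, which allows a level of up to 30.7. Saa3 was not past 1.5-fold between stefin-low and stefin-high cells of macrometastasis.

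**Figure D2:**
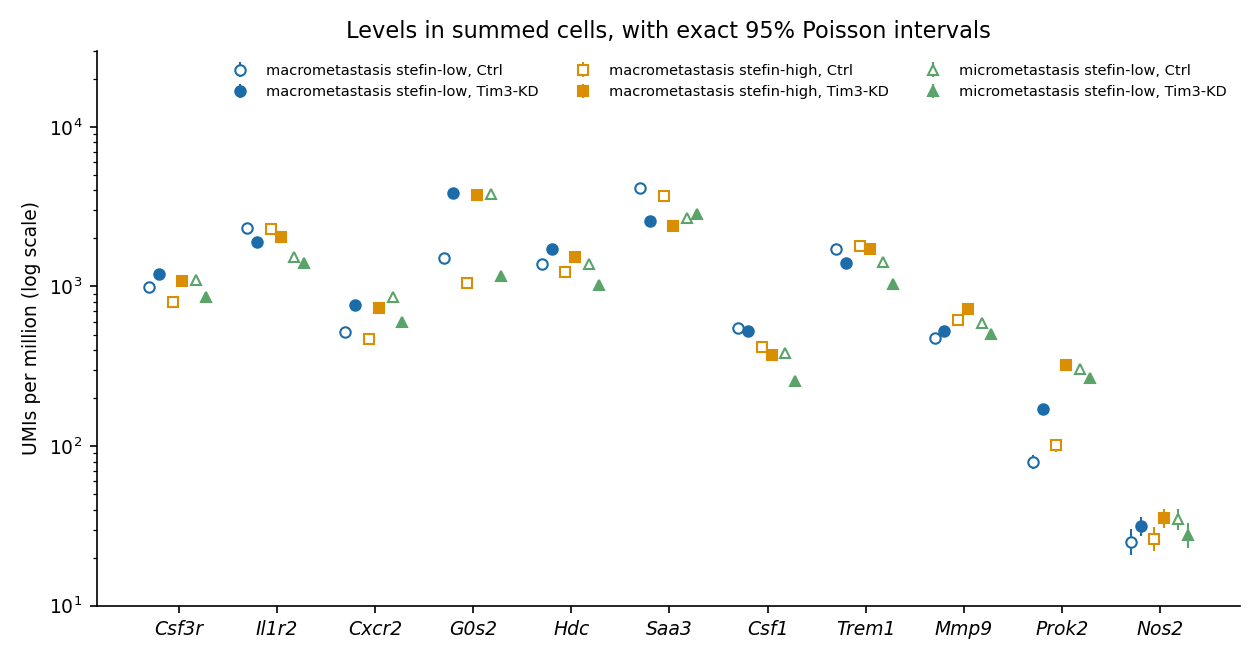
Level in CPM (UMIs per 1000000) on a log scale for the genes of the mature rule, Saa3, Csf1 and 4 myeloid genes, summed over the stefin-low cells of macrometastasis (circles), the stefin-high cells of macrometastasis (squares) and the stefin-low cells of micrometastasis (triangles), with Ctrl open and Tim3-KD filled and bars for exact 95% Poisson intervals. Csf1 is highest in the circles (553 and 526), and G0s2 is at 1508 in Ctrl and 3869.9 in Tim3-KD.

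The cells differed widely among themselves in Saa3. After thinning to 1500 UMIs, 57.9% of stefin-low cells in Ctrl and 69.4% in Tim3-KD had no Saa3 UMI, while 12.1% and 7.59% had 20 or more, up to 119 and 257 in 1 cell. The top 10% of cells held 63.1% of the Saa3 UMIs in Ctrl and 77.6% in Tim3-KD. Csf1 was spread more evenly, with at least 1 UMI in 47.8% (44.1 to 51.4) and 43.7% (40.5 to 46.9) of cells, none with 20 or more, and a top 10% of cells holding 43.2% and 47.3%. B cells of the same libraries, which should lack both, had Saa3 in 0.633% and 1.23% and Csf1 in 0.475% and 0.876% of cells at the same 1500 UMIs (median depth before thinning 3808 and 4451), so neither share lay at the background of free RNA. Csf1 was found in 54.0% of Ctrl cells with Saa3 and in 43.3% of those without, and in 46.6% and 42.4% in Tim3-KD. Isg15 went the other way, in 18.2% of Saa3 cells against 27.4% of the rest in Ctrl, and in 26.6% against 44.1% in Tim3-KD. These shares are descriptions of cells of 1 library each.

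**Figure D3:**
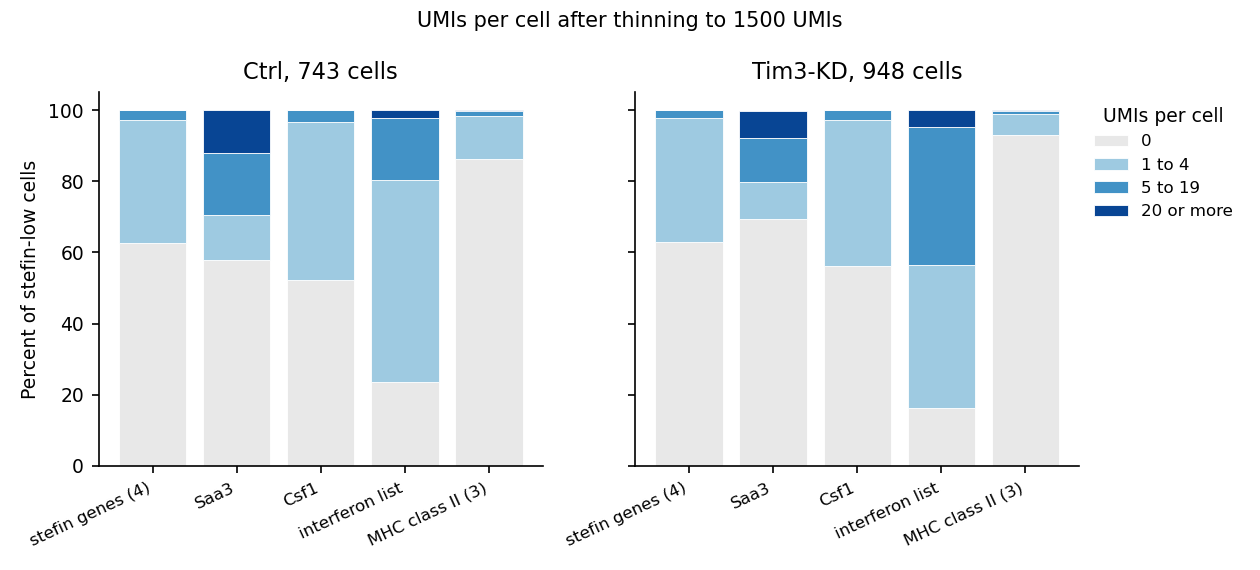
Share of stefin-low cells by number of UMIs per cell, after thinning to 1500 UMIs, for the stefin genes of the rule, interferon-stimulated genes, MHC class II genes, Saa3 and Csf1, in Ctrl (743 cells) and Tim3-KD (948 cells). Saa3 has both a large share of cells at 0 (57.9% and 69.4%) and cells with 20 or more UMIs (12.1% and 7.59%), while Csf1 has no cell with 20 or more.

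The first comparison asked how the stefin-low cells differ between livers with Ctrl and with Tim3-KD tumour cells. A gene is called past the fold where the ratio of levels was at least 1.5 or at most 0.667, among genes with at least 100 UMIs over both sides, which are called counted genes. Of 1446 counted genes, 134 (9.27%) were higher and 207 (14.3%) lower in Tim3-KD, and the median log2 ratio of all of them was −0.12. Trimmed mean scaling moves every log2 ratio by 0.16 and turns this split into 199 higher and 114 lower. Without the 7 cells over 50000 UMIs, 112 genes of 1353 were higher and 170 lower, of which 85 and 144 were among those called with them.

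Interferon-stimulated genes made up the group with the most genes higher in Tim3-KD. Of 60 genes on that list 40 were in the matrix and 30 were counted, of which 17 were higher and 4 lower (Cxcl9, Ifi203, Ifi207 and Ifi44), with a median log2 ratio of 0.72. Without cells holding UMIs of another type, 17 of 18 were higher and 0 lower, with a median of 1.08. Oasl2, a relative of the 2′-5′ oligoadenylate synthetases, had 64.1 CPM in Tim3-KD against 16.8 in Ctrl, a ratio of 3.82 (2.99 to 4.93). Igtp, an interferon-induced GTPase, had 50.2 against 15.9 (ratio 3.15, 2.44 to 4.12), and Slfn5 157 against 70.2 (2.24, 1.98 to 2.55). The next 4 genes were chosen after their values were seen. Isg15, a ubiquitin-like modifier, had 613 against 343 (1.78), Ifit1 78.5 against 37.9 (2.07), Irf7 139 against 79.4 (1.75) and Rsad2 167 against 104 (1.61). Ratios of these 7 genes without the cells over 50000 UMIs ran from 1.74 for Rsad2 to 4.07 for Oasl2.

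More cells carried such RNA in Tim3-KD, and not just a few at a high level. At 1500 UMIs per cell, Isg15 was found in 23.6% (20.5 to 26.8) of stefin-low cells in Ctrl and 38.7% (35.6 to 41.9) in Tim3-KD, against 2.22% and 0.701% of B cells. For the whole list, 2.15% of Ctrl cells and 4.75% of Tim3-KD cells held 20 or more UMIs, 17.5% and 38.9% held 5 to 19, and 23.6% and 16.4% held 0. The median was 1.00 UMI per cell in Ctrl and 3.00 in Tim3-KD.

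Stefin-high cells of the same libraries had higher levels in Tim3-KD as well. Without cells over 50000 UMIs, the Tim3-KD to Ctrl ratio of Isg15 was 1.93 (1.82 to 2.04) in stefin-low and 2.53 (2.35 to 2.73) in stefin-high cells, and that of Slfn5 2.39 and 3.72. Oasl2 had 4.07 and 3.98, with overlapping intervals. In all other cells of macrometastasis the ratios were 0.774 for Isg15, 0.703 for Oasl2, 0.820 for Igtp and 1.01 for Slfn5. In stefin-low cells of micrometastasis they were 0.730 for Isg15, 0.995 for Oasl2, 0.882 for Igtp and 0.852 for Slfn5. Ifit1 had 1.25 (1.10 to 1.43) in those cells of micrometastasis and 0.799 in other cells of macrometastasis. These 5 genes were thus past the fold in both kinds of mature neutrophil of macrometastasis, and below it in the other cells there and in stefin-low cells of micrometastasis. These differences between ratios were not tested.

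**Figure D4:**
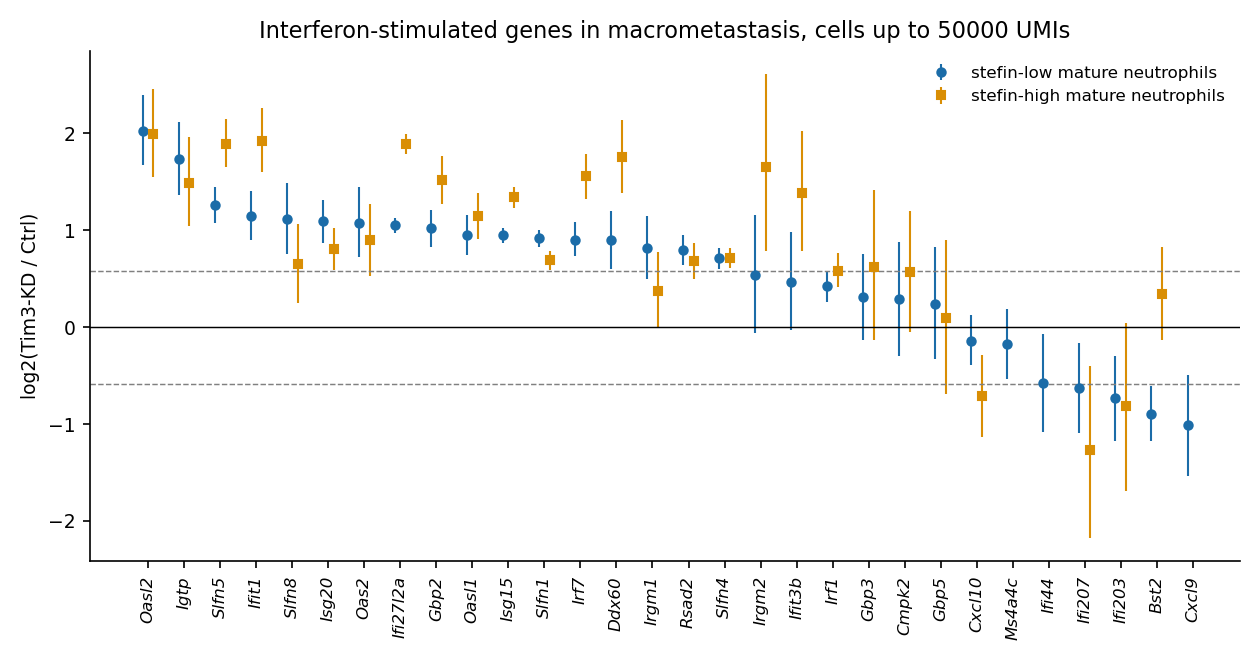
log2 of the Tim3-KD to Ctrl ratio of 30 interferon-stimulated genes in stefin-low (circles) and stefin-high (squares) mature neutrophils of macrometastasis, without cells over 50000 UMIs, with exact 95% binomial intervals, dashed lines at a ratio of 1.5 either way, and genes with under 20 UMIs over both libraries left out. Oasl2 and Igtp lead in stefin-low cells (ratios 4.07 and 3.32), and Cxcl9 is lowest.

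To set sequence beside these levels, RefSeq promoters (250 bases before to 50 after the start, GRCm38.p6) were searched on both strands for GAAA, any 2 bases and GAAA again, the core of an interferon response element. It was found in 943 of 27025 promoters (3.49%), in 59 of 1115 counted genes with a promoter (5.29%), and in 16 of 28 counted interferon-stimulated genes (57.1%). Among these 28 it was in 9 of the 15 that were higher and in 7 of the 13 that were not, so it did not separate them. Windows of 4 genes that were higher and of Saa3 and Csf1 follow, 5′ to 3′ on the strand of the gene. The first match in each promoter is in capitals. The window of Isg15 also holds another, overlapping match, which is partly in small letters. In Ifit1 the motif reads on the opposite strand. Csf1 is shown for a match to another motif, that of NF-kB (GGGA, any base, TTTCC), on the opposite strand, which was in 104 of all promoters (0.385%).
Igtp, chr11:58199512-58199541: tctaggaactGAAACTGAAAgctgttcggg
Isg15, chr4:156200877-156200906: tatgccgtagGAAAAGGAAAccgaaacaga
Slfn5, chr11:82951937-82951966: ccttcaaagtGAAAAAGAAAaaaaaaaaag
Ifit1, chr19:34640775-34640804: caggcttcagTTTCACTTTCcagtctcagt
Saa3, chr7:46715782-46715811: gttatcttctGAAAGAGAAAttatgggtaa
Csf1, chr3:107760604-107760633: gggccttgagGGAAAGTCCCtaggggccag
Of the 4 markers, Saa3 alone held the interferon response motif and Csf1 alone the NF-kB motif in this window. The 4 interferon-stimulated genes shown were picked among those that were higher. A match is a description of letters and does not show that a factor binds.

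Saa3 was lower in Tim3-KD, at a ratio of 0.619 (0.606 to 0.632). Without the cells over 50000 UMIs it was 0.675, which is short of the fold. The same ratio in stefin-high cells was 0.637 (0.623 to 0.650), while in all other cells of macrometastasis it was 1.57. Saa3 was also in fewer cells, 42.1% (38.5 to 45.8) in Ctrl and 30.6% (27.7 to 33.6) in Tim3-KD at 1500 UMIs. Of 19 counted acute phase genes and NF-kB targets, 6 were lower (Gpr84, Icam1, Irak3, Nfkbie, Orm1 and Saa3) and 1 higher, with a median log2 ratio of −0.30. Nfkbie, an inhibitor of NF-kB, had 26.9 against 51.4 CPM (0.523, 0.428 to 0.639) and Icam1, an adhesion molecule, 33.8 against 61.5 (0.549). Both were above the limit of the fold, at 0.732 and 0.761, without cells holding UMIs of another type. The gene that was higher, Socs3, a feedback inhibitor of cytokine receptors, had 313 against 195 (1.60, 1.48 to 1.74).

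The cytokines went both ways. Of 13 counted cytokines and growth factors, Osm and Prok2 were higher and Il12a, Tgfb1 and Tnf lower, with a median log2 ratio of −0.07. Osm, oncostatin M, had 236 CPM in Tim3-KD against 109 in Ctrl (2.17, 1.96 to 2.40). Prok2, a chemoattractant also known as Bv8, had 169.6 against 79.8 (2.12, 1.89 to 2.40). Tnf had 87.9 against 171 (0.515, 0.462 to 0.575) and Il12a, the p35 chain of interleukin 12, 32.7 against 61.5 (0.531). With cells holding UMIs of another type left out, Osm had 2.88, Prok2 1.89, Tnf 0.614 and Il12a 0.538. Csf1 was close to equal, at 0.951 (0.903 to 1.00), and 1.03 without the cells over 50000 UMIs. Of 13 counted chemokines 2 were higher and 3 lower, with a median of −0.17. Cxcl3, a ligand of Cxcr2, had 241 against 136 (1.77), and Ccl24 28.3 against 52.3 (0.542). Ccl5 was also higher, at 4.76, but at 0.587 without cells holding UMIs of another type.

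Of 15 counted genes of neutrophil identity (26 on the list), 3 were higher in Tim3-KD (G0s2, Lrg1 and Ly6g) and 0 lower, with a median log2 ratio of 0.27. G0s2, an inhibitor of triglyceride breakdown that belongs to the rule, had 3869.9 against 1508 CPM (2.57, 2.50 to 2.64). Lrg1, a secreted glycoprotein of granules, had 1379 against 810.2 (1.70) and Ly6g, the surface antigen used to sort mouse neutrophils, 142 against 77.3 (1.84). The chemokine receptor Cxcr2, also of the rule, had 770.4 against 522 (1.48), short of the fold. Without the cells over 50000 UMIs Cxcr2 was past it, at 1.59 (1.51 to 1.67). Steap4, a metalloreductase, had 325 against 145 (2.23), and the fatty acid binding protein Fabp5 96.4 against 40.9 (2.36). The inflammatory caspase Casp4 had 206 against 127 (1.63). Without cells holding UMIs of another type, the ratios were 2.59 for G0s2, 1.62 for Lrg1, 1.61 for Ly6g, 2.56 for Steap4, 2.21 for Fabp5 and 1.70 for Casp4. In stefin-high cells, without those over 50000 UMIs, they were 3.57 for G0s2, 1.58 for Lrg1, 1.72 for Ly6g, 3.21 for Steap4, 2.46 for Fabp5 and 1.87 for Casp4. These 6 genes, of which G0s2 also served to choose the cells, were therefore past the fold in both kinds of mature neutrophil.

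Of 23 counted immediate early and stress genes 2 were higher and 5 lower, with a median log2 ratio of −0.10. Fos had 999 against 636 (1.57) and Ier3 550.1 against 315 (1.75), while Dusp2, Jun, Klf4, Mt1 and Nr4a2 were lower. Klf4, at 0.526, came to 1.02 without cells holding UMIs of another type. Of 7 counted genes of survival and death, Casp4 and Cdkn1a were higher, and Bbc3 and the 3 copies Bcl2a1a, Bcl2a1b and Bcl2a1d lower, with a median of −0.60. Bbc3, a promoter of apoptosis, had 11.4 against 20.9 CPM (0.547), and Bcl2a1a, an inhibitor of apoptosis, 11.3 against 25.2 (0.447). The Bcl2a1 copies are nearly identical, so their separate values are uncertain. Arrdc4, an arrestin-like gene that responds to glucose, had a ratio of 0.370 (0.335 to 0.407), and the protease Ctsl 489 against 821 (0.596), which was 0.671, short of the fold, without the cells over 50000 UMIs. For Arrdc4 the ratio in stefin-high cells (0.405), in other cells of macrometastasis (0.477) and in stefin-low cells of micrometastasis (0.322) lay on the same side, all without cells over 50000 UMIs.

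Some groups stood high mainly through the large cells. All 8 counted azurophil granule genes were higher in Tim3-KD, with Elane at 452 against 1.94 CPM (a ratio of 233) and Mpo at 425 against 1.51 (282). Without the 7 large cells Elane had a ratio of 3.45, Mpo 7.21, Prtn3 2.87 and Ctsg 2.86, and only 1 gene of the list still had 100 UMIs. All 8 counted cell division genes were also higher, with a median log2 ratio of 2.88. Without the large cells 1 of them was left above the minimum, at −0.37. Neither group therefore describes the stefin-low cells in general.

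Of the genes that the study names in myeloid cells, Prok2 (2.12, above) was past the fold, and Trem1, Mmp9 and Nos2 were not. Trem1, an amplifier of inflammatory signals, had 1413 against 1706 CPM (0.828). Mmp9, gelatinase B, had 523 against 475 (1.10), and Nos2, the inducible nitric oxide synthase, 31.4 against 25.2 (1.25, 0.990 to 1.58), and 1.33 (1.06 to 1.69) without the cells over 50000 UMIs. Havcr2 (12 UMIs in Tim3-KD and 32 in Ctrl) was under the minimum. Il1b was not analysed here, nor was Cd274, which the study's text does not name in myeloid cells. None of the 5 counted stefin A genes and none of the 15 counted sensing receptors was past the fold, and of 12 counted growth factor and chemokine receptors 1 was lower (Tgfbr1, 0.617).

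The second comparison set stefin-low against stefin-high cells within each library, and a gene had to be past the fold in Ctrl and in Tim3-KD. Of 1247 counted genes, 88 (7.06%) were higher and 21 (1.68%) lower in stefin-low cells. Both libraries had median log2 ratios above 0, 0.19 and 0.14, and the trimmed mean of the ratios was 0.36 and 0.35. Under trimmed mean scaling the split turned around, to 46 higher and 79 lower. Levels close to equal are therefore given no direction here.

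The stefin genes of the rule were low by choice: Stfa1 had 0.0363 and 0.0384 of the level of stefin-high cells (Ctrl and Tim3-KD), Stfa3 0.0348 and 0.0325, Stfa2 0.115 and 0.119 and Cstdc6 0.106 and 0.106. Relatives that the rule did not use were lower as well. Stfa2l1 had 0.364 and 0.420, Cstdc4 0.231 and 0.283, Csta2 0.230 and 0.270, and Csta3 0.279 and 0.356. All 6 counted stefin A genes of the list were lower. Stfa1, Stfa2, Stfa3 and Stfa2l1 lie within 299 kb of chromosome 16 (36156811 to 36455392, GRCm38) and are similar in sequence, so reads may be shared between them and the separate values are uncertain.

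Some granule genes were lower too. Of 17 counted genes of secondary and tertiary granules 5 were lower and 1 higher, with medians of −0.51 and −0.48. Ngp, the neutrophilic granule protein, had 1237 against 2775 CPM in Ctrl (0.446) and 1011 against 2454 in Tim3-KD (0.412). Cd177, a neutrophil adhesion glycoprotein, had 129 against 277 (0.465) and 146 against 269 (0.543). Ly6g had ratios of 0.548 and 0.617, Anxa1 0.635 and 0.626, and the cathelicidin Camp 0.346 and 0.566. Camp had 0.742 and 0.570 without cells over 50000 UMIs of either kind, which ended its call, and the 6 large stefin-low cells held 45.5% of its UMIs in Tim3-KD. Once cells holding UMIs of another type were left out, Ngp had 0.512 in Ctrl, Cd177 0.453 and 0.521, but Camp 0.878 and 0.413. Outside that list, Ifitm6 had 0.497 and 0.567 and Ggt1 0.581 and 0.518. Lcn2, lipocalin 2, was lower by less than the fold, at 0.702 and 0.673. The 1 gene of the list that was higher, Cybb (1.77 and 1.65), encodes a subunit of the phagocyte NADPH oxidase, and had 1.11 and 1.14 without cells holding UMIs of another type.

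Higher in stefin-low cells were Cxcr4, the receptor that returns aged neutrophils to the marrow (187 against 118 CPM in Ctrl, 1.59, and 217 against 140.4 in Tim3-KD, 1.55), and Ptgs2, the inducible cyclooxygenase (143 against 76.2, 1.87, and 204 against 118, 1.73). Without cells holding UMIs of another type both ratios were larger, 2.07 and 2.04 for Cxcr4 and 2.43 and 2.49 for Ptgs2. Under trimmed mean scaling they were still above 1 but short of the fold, at 1.24 and 1.21 for Cxcr4 and 1.46 and 1.36 for Ptgs2. Of 23 counted immediate early and stress genes 4 were higher, with medians of 0.52 and 0.44: Atf3 (332 against 191 CPM in Ctrl and 413 against 274 in Tim3-KD), Dusp2 (2.19 and 1.64), Nr4a2 (2.57 and 1.75) and Klf4 (2.52 and 2.88, or 1.30 and 1.86 without cells holding UMIs of another type). The receptors Clec4n (1.90 and 1.67) and Fcgr2b (1.86 and 1.94) and the lysosomal protease Ctsb (1.56 and 1.53) were higher too. With cells holding UMIs of another type left out, Clec4n had 2.18 and 2.33 and Ctsb 1.59 and 1.54, while Fcgr2b, which is also on the endothelial list, had 1.68 and 1.43 with intervals that hold 1. Under trimmed mean scaling none of these 3 was past the fold in both libraries (1.48 and 1.31 for Clec4n, 1.45 and 1.52 for Fcgr2b, 1.21 and 1.20 for Ctsb), and of the 4 immediate early genes Klf4 alone was (1.96 and 2.26). Ccrl2, a receptor that presents chemerin, was higher by less than the fold (1.41 and 1.39) and had a high level, 2224 CPM in Ctrl and 2811 in Tim3-KD. Trem1, Mmp9 and Saa3 were not past the fold.

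Interferon-stimulated genes leaned the same way, with 6 of 22 counted genes higher (Bst2, Cxcl10, Ifi203, Igtp, Ms4a4c and Oasl2) and 0 lower, and medians of 0.82 and 0.39. The trimmed mean log2 ratio of this comparison was 0.36 in Ctrl and 0.35 in Tim3-KD, so the median in Tim3-KD lay close to it. Ms4a4c is on the monocyte list as well. Cxcl10, a chemokine for T cells, had 50.8 against 21.4 CPM in Ctrl (2.37) and 42.6 against 13.2 in Tim3-KD (3.23), or 1.40 and 7.68 without cells holding UMIs of another type. Isg15 was found in 12.5% and 30.0% of stefin-high cells at 1500 UMIs, below its shares in stefin-low cells. The genes with the largest ratios were of another kind. Lgals1 (24.3 and 10.5), S100a4 (16.6 and 6.88), Ms4a6c (7.35 and 19.6) and H2-Aa (4.43 and 7.20) are abundant in monocytes, macrophages or dendritic cells. For Lgals1 the ratios were 8.33 and 5.08 without cells over 50000 UMIs. Without cells holding UMIs of other types, H2-Aa had 1.56 (0.873 to 2.86) and 1.17 (0.648 to 2.11), Ms4a6c 1.38 and 1.24, Lgals1 1.84 and 1.41, and S100a4 0.638 in Tim3-KD. Of the 9 counted monocyte markers 7 were higher, as were 7 of 8 counted Kupffer cell and macrophage markers. MHC class II UMIs lay in few cells, with 86.3% of stefin-low cells in Ctrl and 93.0% in Tim3-KD at 0 after thinning, and the top 10% of cells held 90.1% of the UMIs in Ctrl.

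**Figure D5:**
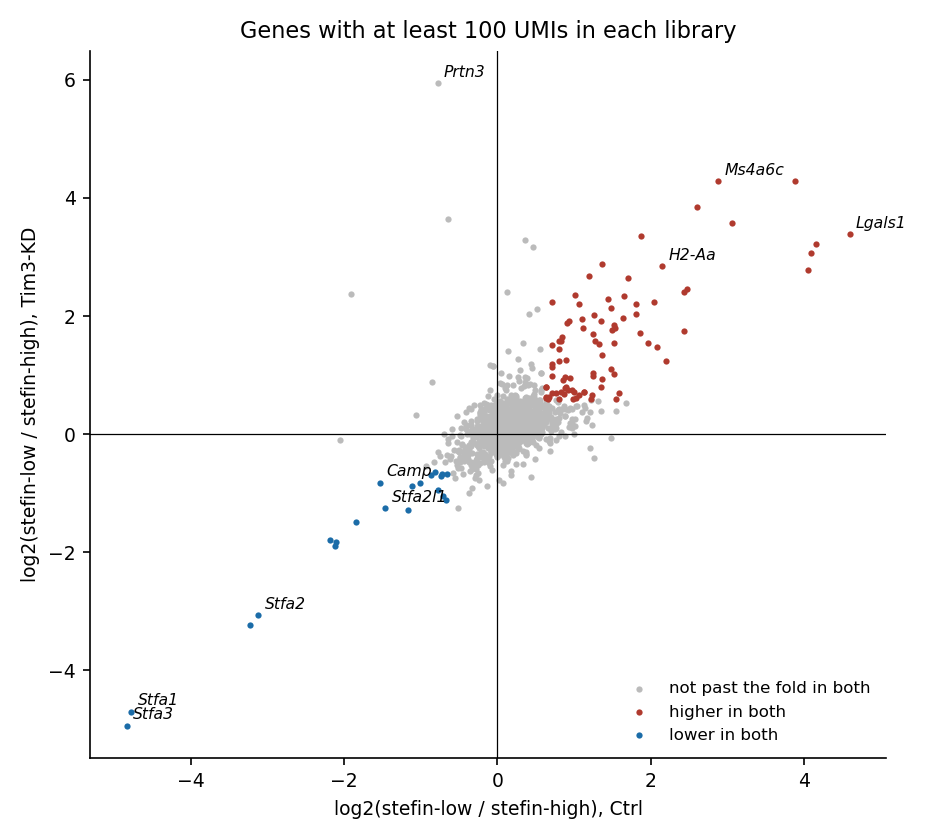
log2 ratio of stefin-low to stefin-high cells in Ctrl (horizontal) and Tim3-KD (vertical), 1 point per gene with at least 100 UMIs over both kinds of cell in each library, coloured where the ratio passed 1.5 either way in both. The stefin genes lie far to the lower left (Stfa3 at 0.0348 and 0.0325), and Lgals1, Ms4a6c and H2-Aa to the upper right.

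The third comparison set the stefin-low cells of macrometastasis against those of micrometastasis, Ctrl with Ctrl and Tim3-KD with Tim3-KD. Site and day differ together (day 12 and day 3), as do the libraries, and these cannot be told apart. Of 946 counted genes in both matrices, 159 (16.8%) were higher and 37 (3.91%) lower in macrometastasis in both pairs, with median log2 ratios of 0.41 and 0.36. Trimmed mean scaling (trimmed means 0.56 and 0.19) gave 42 higher and 73 lower, so the excess of higher genes depends on the scaling. Without cells holding UMIs of another type 67 genes were higher and 24 lower. Hepatocyte markers in stefin-low cells came to 397 CPM in macrometastasis and 162 in micrometastasis in Ctrl, and to 332 and 279 in Tim3-KD. Kupffer cell and macrophage markers came to 728 and 257 in Ctrl, but to 699 and 1058 in Tim3-KD.

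Mt1, Arrdc4, Hilpda and Jmy were among the genes furthest above micrometastasis. Mt1, a metal-binding protein, had 1598 against 143 CPM in Ctrl (11.1, 10.3 to 12.0) and 1065 against 186 in Tim3-KD (5.72, 5.33 to 6.16). Arrdc4 had 271 against 30.0 in Ctrl (9.02) and a ratio of 10.0 in Tim3-KD. Hilpda, a hypoxia-induced lipid droplet protein, had 504 against 120.4 (4.19) and 384 against 61.8 (6.21). Jmy had ratios of 8.18 and 4.89, Errfi1 3.91 and 3.30, Rgcc 3.37 and 11.4 (6.56 in Tim3-KD without cells over 50000 UMIs), and the clock gene Per2 3.97 and 2.58. Under trimmed mean scaling Mt1 still had 7.56 and 5.01, Arrdc4 6.12 and 8.78, and Hilpda 2.84 and 5.43. Once cells holding UMIs of another type were left out, they had 15.3 and 8.67, 9.68 and 10.1, and 3.52 and 9.40. Of 12 counted genes of hypoxia and glycolysis 2 were higher, Hilpda and Ero1l (1.61 and 1.60), a share near the 16.8% of all counted genes, with a median of 0.41 in Ctrl.

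Of 22 counted immediate early and stress genes 6 were higher in macrometastasis, with a median of 0.49 in Ctrl: Egr3, Fosb, Maff, Mt1, Mt2 and Nr4a3. Fosb had 332 against 154 CPM in Ctrl (2.16) and 322 against 165 in Tim3-KD (1.95). The chemokine Ccl3, which attracts monocytes and neutrophils, had 591 against 277 (2.13) and 489 against 204 (2.39). Of 13 counted cytokines, a share near that of all counted genes was higher: Il12a (3.73 and 1.64, or 4.18 and 1.27 without cells holding UMIs of another type) and Tnfsf14, the ligand LIGHT (1.80 and 1.74). Prok2 was lower (0.261 and 0.637). Under trimmed mean scaling Fosb (1.47 in Ctrl), Ccl3 (1.44 in Ctrl), Tnfsf14 (1.22 in Ctrl), Il12a (1.44 in Tim3-KD) and Ero1l (1.09 in Ctrl) were short of the fold, and 2 of the 22 immediate early genes were higher. With the micrometastasis cells chosen on the scales of macrometastasis, 3 of the 22 were, and the log2 ratios short of the fold were 0.25 for Fosb and 0.36 for Il12a in Tim3-KD and 0.44 for Egr3, 0.39 for Maff and 0.56 for Tnfsf14 in Ctrl. The hepatocyte genes Alb (5.79 and 2.41) and Fgb (26.7 against 3.18 CPM in Ctrl and 19.9 against 11.1 in Tim3-KD) were also higher. The Kupffer cell genes Clec4f (6.10 and 0.618) and Cd5l (5.92 and 0.611) were far higher in Ctrl and lower in Tim3-KD.

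Several granule genes were lower in macrometastasis. Of 13 counted genes of secondary and tertiary granules 7 were lower, with medians of −1.11 and −1.04. These were Cd177, Ceacam10, Chil3, Fcnb, Ltf, Ly6g and Pglyrp1. Fcnb and Ltf belong to the rule and served to choose the cells at each site, on separate scales. Their ratios enter the count and the medians but are no independent result. Fcnb had under 100 UMIs, and Chil3 moved from 0.390 to 0.628 in Ctrl, when cells over 50000 UMIs were left out. Ly6g had 77.3 against 330.3 CPM in Ctrl (0.234) and 142 against 403 in Tim3-KD (0.352). Cd177 had ratios of 0.393 and 0.346, and Pglyrp1, a peptidoglycan recognition protein, 0.371 and 0.486. Without cells holding UMIs of another type Ly6g had 0.305 and 0.387, Cd177 0.526 and 0.457, and Pglyrp1 0.411 and 0.563. None of 11 counted growth factor and chemokine receptors and none of 11 counted sensing receptors was past the fold in both pairs. Ifitm6 had 729.9 against 2227 (0.328) and 1048 against 3432 (0.305). Of the stefin A genes, Stfa2, Stfa3 and Cstdc6 were lower but served to choose the cells at each site, and Cstdc4, which is outside the rule, had 0.379 and 0.630. The separate scaling of the sites bears on these results. When the micrometastasis cells were chosen on the scales of macrometastasis, 3 of 12 counted granule genes and 0 of 5 stefin A genes were lower past the fold. On those scales the log2 ratios (Ctrl and Tim3-KD) were −1.70 and −1.04 for Ly6g, −1.15 and −0.69 for Pglyrp1, −1.17 and −1.23 for Ifitm6 and −0.57 and −0.75 for Cd177. Ltf turned to 0.24 and 2.13, and Serpinb1a, at ratios of 0.155 (0.394 without cells over 50000 UMIs) and 0.233 with each site on its own scale, had log2 ratios of −0.98 and 0.16.

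The markers differed by pair. Csf1 was higher in macrometastasis in both, at 1.44 (1.36 to 1.53) in Ctrl and 2.06 (1.93 to 2.20) in Tim3-KD, but at 0.977 in Ctrl under trimmed mean scaling. With the micrometastasis cells chosen on the scales of macrometastasis its log2 ratios were 0.24 and 0.74. Saa3 was 1.56 times as high in Ctrl, and in Tim3-KD it had 2574 against 2859. G0s2, of the rule, was at 0.396 in Ctrl and 3.33 in Tim3-KD, since its level was 3809 and 1161 in micrometastasis and 1508 and 3869.9 in macrometastasis. Cxcr2 had 0.610 and 1.28. Trem1 was at 1.20 and 1.37, below the fold. Of 28 interferon-stimulated genes none was past the fold in both pairs, with medians of −0.96 in Ctrl and −0.13 in Tim3-KD.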

How the data were processed

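Single-cell RNA libraries (10x Genomics 3′) of sorted CD45+ liver cells were analysed, 6 libraries with 1 per group. Per the labels and the study's methods, the authors trimmed reads and aligned them to the mouse genome (the submitters' processing notes name Trim Galore 0.4.3, STAR 2.7.7a and GRCm 38), counted UMIs over exons and introns, filtered cells on UMIs, genes and mitochondrial share, and removed doublets before deposit. No doublet caller was run here. The deposited values are a scaled score per gene and cell, with depth regressed out and values held at 10, made for each site separately over variable genes (2643 in macrometastasis). Gene selection on variability means that a gene not in a matrix was not analysed here.

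The score scale was inverted to whole UMIs and to the total of each cell; 99.997% of values in macrometastasis came out whole (tolerance 0.05). The design had foreseen another unit, so sums of these recovered UMIs were used. In macrometastasis 2 cells could not be inverted. Levels are CPM, UMIs per 1000000 UMIs of the summed cells. Ratios of summed UMIs were compared between groups at a fold of 1.5, among genes with at least 100 UMIs over both sides. Without replicates in a group no test was run. Medians and shares over all counted genes are given once per comparison, as the background for its lists. Members and gene lists were chosen with earlier results of these data known. Genes named were those of the rule and the markers, and the 10 highest and 10 lowest ratios per comparison among genes with at least 200 UMIs. Left out of these highest and lowest were rule, mitochondrial, ribosomal, haemoglobin, immunoglobulin, T cell receptor, Xist and unnamed genes. Also named were the 4 genes of largest change or at 0 on 1 side per list. The last were 8 myeloid genes, of which the study's text names all but Cd274 in myeloid cells. A few of the named genes are not reported here. Alternatives covered the rule's thresholds, count minimum, fold, scaling, thinning and cells left out. Python 3.11.15, numpy 2.4.6, scipy 1.17.1, pandas 2.3.3 and matplotlib 3.10.9 were used, and scripts were tested on simulated data. Gene positions came from GENCODE annotation of GRCm38.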

Additional observations from a re-analysis of the deposited data

Results flagged for a closer look

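In stefin-low cells, 47 of 822 genes tested at both sites were past the fold in opposite directions between Tim3-KD and Ctrl in macrometastasis and in micrometastasis, without cells over 50000 UMIs. Of these, 10 are genes named by the rule for named genes. The difference between the sites was not tested, with 1 library per group.

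Higher in Tim3-KD in macrometastasis and lower in micrometastasis were 7 genes. G0s2, an inhibitor of triglyceride breakdown, had a ratio of 2.75 in macrometastasis and 0.295 in micrometastasis. Osm, oncostatin M, had 2.32 and 0.601, and Cxcl3, a ligand of Cxcr2, 1.90 and 0.217. Ptgs2, the inducible cyclooxygenase, had 1.52 and 0.186. The feedback inhibitor Socs3 had 1.73 and 0.326, Fos 1.68 and 0.521, and the metalloreductase Steap4 2.41 and 0.544.

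Lower in macrometastasis and higher in micrometastasis were 3 genes. Tnf had 0.552 and 1.54, Chil3, a chitinase-like protein of granules, 0.647 and 3.13, and Klf4 0.587 and 2.68. Klf4 in macrometastasis was at 1.02 without cells holding at least 3 UMIs of another cell type.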

How the results depend on the processing

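No paired test was run, and no result comes from a test. Each group is 1 library, with no replicate to leave out, and stefin-low and stefin-high cells were compared within each library as values. Over the values of named genes under all alternatives, 2147 values kept their size and side, 1418 moved and 10 reversed; the cause was not tested. Depth limits the low genes: with 1 library per group an interval covers counting error only.

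For Tim3-KD against Ctrl (134 genes higher, 207 lower), a minimum of 20 UMIs gave 240 and 466, a minimum of 500 gave 49 and 49, a fold of 2 gave 68 and 51, thinning to 1500 UMIs 59 and 36, and leaving out cells with at least 3 UMIs of another cell type 88 and 56. Trimmed mean scaling gave 114 lower. For stefin-low against stefin-high (88 higher, 21 lower), the minimum of 500 gave 21 and 13, the fold of 2 gave 44 and 10, trimmed mean scaling 46 and 79, and the minimum of 20 gave 351 higher. Higher genes were 140 at a mature threshold of 0.2, 21 after thinning and 51 without cells of another type. For macrometastasis against micrometastasis (159 higher, 37 lower), the minimum of 500 gave 24 and 17, the fold of 2 gave 38 and 17, trimmed mean scaling 42 and 73, and no cells of another type 67 and 24. Higher genes were 258 at 20 UMIs, 87 at an immature threshold of 0, 98 with micrometastasis chosen on the scales of macrometastasis, 248 at a stefin threshold of 0.8 and 28 after thinning. Leaving out cells over 50000 UMIs, or those and cells with at least 10 UMIs of another type, was chosen after seeing the data; the latter gave 133 lower genes in Tim3-KD and 37 higher against stefin-high.

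The share of stefin-low cells among all cells (15.1% in Ctrl, 17.2% in Tim3-KD) was 9.57% and 11.2% at an immature threshold of 0, 13.2% and 16.2% at a mature threshold of 0.6, 12.6% and 14.0% at a stefin threshold of 0.2, 17.5% and 20.6% at 0.8, and 8.20% and 9.20% without cells of another type; in Tim3-KD it was 16% without cells under 3000 UMIs. Among mature neutrophils (54.4% in both) it was 50.5% and 50.2% at the immature threshold of 0, 45.2% and 44.2% at the stefin threshold of 0.2, 63.1% and 64.9% at 0.8, 57.5% in Ctrl without cells of another type, and 51.8% in Tim3-KD without cells under 3000 UMIs.

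On the log2 scale, the Tim3-KD macrometastasis to micrometastasis ratio of Cebpe turned to 0.22 at the immature threshold of 0 and to 4.93 on the scales of macrometastasis, from a ratio of 0.310 that was 0.0544 without cells over 50000 UMIs, where 7 of its 158 UMIs remained. On those scales Ltf turned to 0.24 in Ctrl and 2.13 in Tim3-KD, and Serpinb1a to 0.16 in Tim3-KD. Without cells of another type, Klf4 turned to 0.03 for Tim3-KD against Ctrl, and against stefin-high cells in Tim3-KD H2-Ab1 turned to -0.08 and S100a4 to -0.65. Without cells over 50000 UMIs or with at least 10 UMIs of another type, Lgals1 turned to 0.73 for Tim3-KD against Ctrl and S100a4 to -0.54 against stefin-high cells.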

Other observations

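Some features differed between the Tim3-KD and Ctrl libraries of macrometastasis by having UMIs in 1 library almost alone. These features were chosen after their values were seen. In stefin-low cells the merged feature Mif-ps/Mif had 712 UMIs in Tim3-KD and 0 in Ctrl, and BC004004/Rpl21-ps15 had 489 and 8. Tpt1-ps3/Tpt1-ps6 had 0 and 223. Hmga1 had 6 and 263, while the merged feature Hmga1/Hmga1b had 183 and 0. Ugt1a7c, which shares exons with other Ugt1a genes, had 95 and 541. Without cells over 50000 UMIs, Hmga1 had 6 and 139, and its Tim3-KD to Ctrl ratio moved from 0.0166 to 0.0340. Mif-ps/Mif then had 444 and 0. Stefin-high cells had the same direction for each of these features, among them 408 and 0 for Mif-ps/Mif and 117 and 528 for Ugt1a7c. The macrometastasis matrix holds 48 merged features of this kind, whose counts and those of the genes in their names are uncertain.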
